A study of Mus musculus with 18 samples.

Results

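Described here are the transcripts of 9 regulators of G protein signalling (RGS proteins) in the mouse striatum: Rgs2, Rgs4, Rgs7, Rgs8, Rgs9, Rgs10, Rgs14, Rgs16 and Rgs20. They were taken by gene name from a table of 29942 genes. All 9 were found, and all 9 reached a mean of 1 FPKM (fragments mapped to a transcript, scaled by its length and by the size of the library), the minimum for testing that 13975 genes met. The table held 18 libraries of polyA RNA, 1 per mouse, in 6 groups of 3. All mice were 129Sv/Jae S4 siblings, matched for age and sex and housed in groups. Controls received 0.9% saline intraperitoneally. Treated mice received D-amphetamine hemisulfate in 0.9% saline by the same route, at 10 ml/kg and 7 mg/kg in total per day. Striatum from both hemispheres was taken on day 1, 7 or 21. The labels give neither the age of the mice nor how long after the last injection they were dissected.

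RGS proteins speed the hydrolysis of GTP by G protein alpha subunits and so shorten the signal that a receptor sends after it binds its ligand. In the striatum, dopamine, acetylcholine, opioid and adenosine receptors all signal through G proteins in the projection neurons that make up most of the tissue. The members fall into 4 subfamilies: Rgs2, Rgs4, Rgs8 and Rgs16 (R4, small proteins that are mostly the RGS domain), Rgs7 and Rgs9 (R7, which work bound to the beta subunit encoded by Gnb5), Rgs10 and Rgs14 (R12), and Rgs20 (RZ).

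RefSeq promoter windows (GRCm38.p6, a later build than the mm9 of the FPKM table) were found for 7 of the 9 members; Rgs14 and Rgs20 had no entry. Printed here, from the table's windows, are the 250 bases upstream of the annotated start, read 5′ to 3′ on the gene's strand. Rgs2 is shown because it was the member that passed the test for amphetamine, Rgs4 because its groups separated in the other direction on day 7, and Rgs16 because its level separated by day. Capitals mark TGACG, the core of the cAMP response element, on either strand (CGTCA where it lies on the opposite strand). Rgs2 lies on the minus strand at chr1:144004150-144004399, Rgs4 on the minus strand at chr1:169747643-169747892 and Rgs16 on the plus strand at chr1:153740103-153740352.
Rgs2: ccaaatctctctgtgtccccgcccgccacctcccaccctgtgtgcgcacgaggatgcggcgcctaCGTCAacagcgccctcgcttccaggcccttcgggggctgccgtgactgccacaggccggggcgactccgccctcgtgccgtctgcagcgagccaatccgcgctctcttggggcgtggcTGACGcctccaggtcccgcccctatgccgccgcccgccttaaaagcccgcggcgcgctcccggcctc
Rgs4: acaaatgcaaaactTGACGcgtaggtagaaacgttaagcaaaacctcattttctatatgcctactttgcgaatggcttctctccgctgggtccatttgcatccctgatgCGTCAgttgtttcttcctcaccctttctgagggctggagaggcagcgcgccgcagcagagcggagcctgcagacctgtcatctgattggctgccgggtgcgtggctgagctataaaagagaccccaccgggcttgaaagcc
Rgs16: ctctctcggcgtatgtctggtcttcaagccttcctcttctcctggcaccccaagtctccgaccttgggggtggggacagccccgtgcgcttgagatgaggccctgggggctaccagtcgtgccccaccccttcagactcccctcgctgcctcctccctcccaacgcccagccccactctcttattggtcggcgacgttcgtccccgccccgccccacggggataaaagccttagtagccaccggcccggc
The Rgs2 and Rgs4 windows each held 2 copies of TGACG. In Rgs2 they lay at -185 to -181 (opposite strand) and -67 to -63 (gene strand), counted back from the base before the start as -1. In Rgs4 they lay at -236 to -232 (gene strand) and -141 to -137 (opposite strand). The Rgs16 window held none, and neither did those of Rgs7, Rgs9 and Rgs10, while 1 of the 3 Rgs8 windows held 1 copy. Among 32851 mouse promoter windows of the same length, 17.8% held at least 1 copy and 3.9% at least 2. The full element TGACGTCA, which contains TGACG, the AP-1 site TGANTCA and the Egr site GCGTGGGCG were found in none of the 9 member windows on either strand, against 1.55%, 6.75% and 0.536% of all windows. These are matches of letters, with no binding measured.

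Rgs9 and Rgs4 were by far the most abundant members. Rgs9, whose long splice form is enriched in striatum and acts on dopamine and opioid receptor signalling, had a median of 226.7 FPKM over the 18 libraries (193 to 273). Rgs4, an inhibitor of signalling by Gi/o and Gq proteins, had a median of 226.3 FPKM (185 to 345). Their order could not be told, since Rgs9 was higher in only 7 of 18 libraries. Both stood above 98.3% of the tested genes. Together they made 64.02 to 75.07% of the summed FPKM of the 9 members in a library. A middle tier followed: Rgs2 (median 47.5 FPKM), an R4 member that acts preferentially on Gq, Rgs8 (43.9), and Rgs10 (43.1), a small protein best known from microglia. Rgs4 exceeded Rgs2 in all 18 libraries with no overlap of their ranges, whereas Rgs2 exceeded Rgs8 in 12 of 18 and Rgs8 exceeded Rgs10 in 11 of 18. Rgs14, which also carries a motif that binds inactive Gi subunits, had a median of 29.6 FPKM, Rgs20, which acts on Gz, 25.4, and Rgs7 20.7. Rgs10 was above Rgs14 in 18 of 18 libraries, Rgs14 above Rgs20 in 16 and Rgs20 above Rgs7 in 17. Rgs16 came last at 1.45 FPKM (0.88 to 2.32), above only 7% of tested genes, and below Rgs7 in every library with no overlap.

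The table held 11 other numbered Rgs genes, all below the 8 highest members by median. Of these, 7 were tested, led by Rgs5 (median 17.5 FPKM), a transcript of vascular mural cells, Rgs11 (13.8), Rgs17 (10.9) and Rgs3 (9.32). Rgs1, Rgs13, Rgs18 and Rgs22 stayed under the minimum, and Rgs18 was listed at 0 in 13 of 18 libraries. In the RefSeq gene order, several of these genes lie next to or close to each other on chromosome 1 while their levels in striatum differ widely. Rgs8 lies beside Rgs16 (43.9 against 1.45 FPKM), Rgs4 beside Rgs5 (226.3 against 17.5), and Rgs2 beside Rgs13, with Rgs1 next after it (47.5 against 0.0588 and 0.222).

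**Figure D1:**
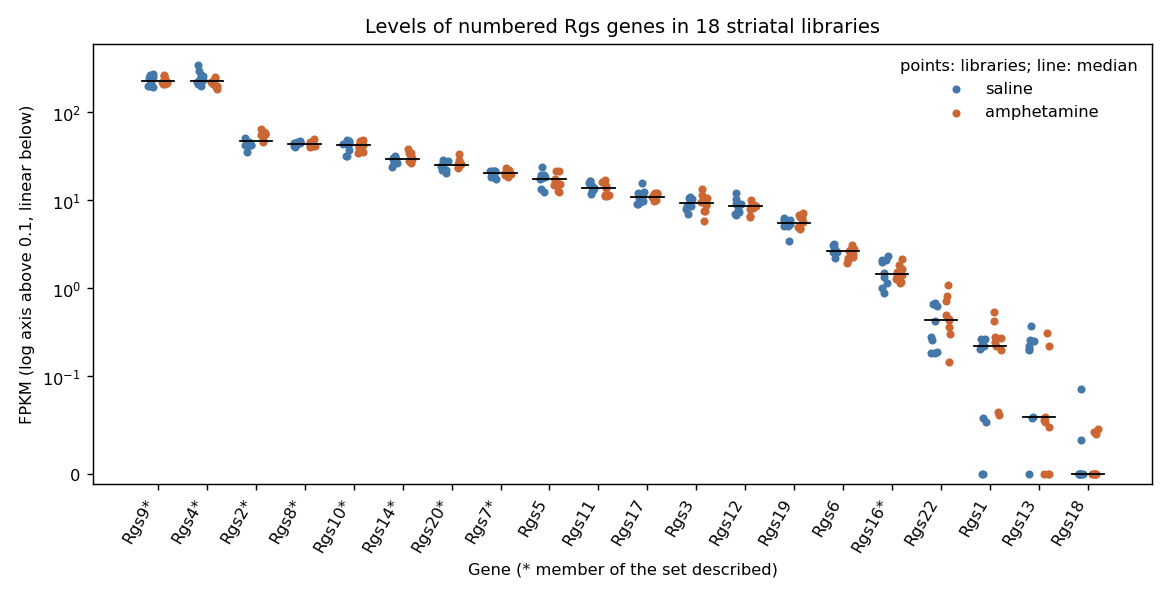
FPKM of the 20 numbered Rgs genes in each of 18 striatal libraries, ordered by median, on an axis that is logarithmic above 0.1 and linear below. Points are libraries, blue for saline and orange for amphetamine, and black lines are medians. Rgs9 and Rgs4 stand alone near 226 FPKM, 6 further members lie between 20.7 and 47.5, and Rgs16 lies at 1.45.

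The libraries as a whole bear on these values as follows. Sequencing depth relative to the deepest library, recovered from the steps in low FPKM values, ranged from 0.652 to 1 and averaged 0.884 in saline and 0.799 in amphetamine libraries. Across genes, log2(FPKM + 1) of libraries of the same group correlated at 0.92 to 0.939, and of different groups at 0.911 to 0.942, so no pair looked like a repeat deposit. All 11 listed markers of projection neurons, Rgs9 among them, were present, with summed levels of 3090 to 3741 FPKM. Markers of other tissue varied more: the cortical glutamatergic sum ran from 14.6 to 112 FPKM, that of choroid plexus from 44.4 to 158, that of oligodendrocytes from 1195 to 3003, that of microglia from 158 to 208, and that of blood (3 of 5 listed genes in the table) from 78.8 to 888. Of 7 tested cortical markers, 0 were higher with amphetamine over the 3 days, with a median difference of -0.38 on the log2 scale, and none passed the test. Some other lists were as one-sided in the other direction. All tested markers were higher for choroid plexus (5, median 0.19), ependymal cells (4, 0.42), oligodendrocyte precursors (5, 0.09) and septum and pallidum (5, 0.10). None of these passed either. In these bulk samples fewer cells of a type and less RNA per cell cannot be told apart.

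Rgs2 was the member that passed the test for amphetamine, and it did so only as the mean of days. Known as an early-response gene that cAMP and calcium signals induce, it was higher with the drug on days 7 and 21. On day 1 its level was 51.3, 44.1 and 42.3 FPKM in the saline mice and 45.6, 48.6 and 58.2 FPKM in the amphetamine mice, and the groups overlapped. On day 7 saline mice had 43.1, 46.3 and 42.8 FPKM and amphetamine mice 65.1, 57.3 and 60.4 FPKM. On day 21 saline mice had 44.3, 35.9 and 42.2 FPKM and amphetamine mice 56.9, 55.5 and 57.4 FPKM. On both later days every amphetamine library lay above every saline library. Such a separation on days 7 and 21 together, with amphetamine higher, was met by 0.565% of the tested genes.

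For day 1 the group means of Rgs2 were 45.9 ± 4.75 FPKM in saline and 50.8 ± 6.57 FPKM in amphetamine mice (SD, n = 3 each). They were 44.1 ± 1.94 against 60.9 ± 3.93 FPKM for day 7 and 40.8 ± 4.41 against 56.6 ± 0.95 FPKM for day 21. The design compares amphetamine with saline on each day and as the mean of the 3 daily differences, and limma was fitted to log2(FPKM + 1) of all tested genes. Averaged over days, Rgs2 rose by 0.36 ± 0.056 (SE; 95% interval 0.24 to 0.48), or 1.28-fold on that scale, with an unadjusted p of 1.63e-05 and a limma adjusted p of 0.0227 (Benjamini-Hochberg). In this comparison 0.122% of tested genes passed, 17 in all, each of them higher. Rgs2 was thus 1 of 9 members called, and the remaining 8 did not pass. The daily differences of Rgs2 were 0.14 (day 1), 0.46 (day 7) and 0.47 (day 21), each ± 0.097 (SE), with limma adjusted p of 0.703, 0.31 and 0.445, so no single day passed over all genes. Their unadjusted p were 0.165, 0.00031 and 0.000255. No member passed on any single day, where 0.00716% (day 1), 0.0215% (day 7) and 0% (day 21) of tested genes did. At an unadjusted p under 0.05 the members numbered 0 for day 1 (7.25% of all genes), 2 for day 7 (4.92%), 1 for day 21 (5.5%) and 2 over the mean of days (5.36%). On day 1 no member had groups that did not overlap, a separation that 7.73% of genes showed with amphetamine higher and 2.9% with it lower. Whether the Rgs2 difference changed between days was tested as an interaction, which gave an unadjusted p of 0.052 and a limma adjusted p of 0.773, with 0% of genes passing (6.25% unadjusted).

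The size of the Rgs2 difference was stable and its call was not. It stayed between 0.32 and 0.40 over 27 alternative settings, with adjusted p from 0.00694 to 0.0789 and no unadjusted p above 5.64e-05. The call was lost in 9 of these settings. In 8 of them 1 library was left out: saline replicates 2 and 3 of day 1, saline replicates 1 and 3 of day 7, amphetamine replicates 1 and 3 of day 7, and amphetamine replicates 1 and 3 of day 21. The remaining setting fitted the replicate number as a block, with equal numbers tied across all days. It did not pair mice within a day. Adjusted p without 1 library ranged from 0.00952 to 0.0789. With relative depth as a covariate, an alternative chosen after the data were seen, the difference was 0.40 (limma adjusted p = 0.0249). Within groups, Rgs2 had a Pearson r of -0.15 with the cortical marker sum and -0.107 with the choroid plexus sum (exact permutation p = 0.683 and 0.788, n = 18). Some marker sums separated by treatment on the same days as Rgs2. On day 7 the interneuron sum was 290 to 345 FPKM in saline and 363 to 376 FPKM in amphetamine mice. On day 21 the direct-pathway neuron sum was 458 to 466 against 497 to 569 FPKM, and the blood sum 91.8 to 147 against 152 to 262 FPKM. In the direct-pathway list 6 of 7 genes were higher on day 21, with a median log2 difference of 0.06. The peptide genes Pdyn (0.52) and Tac1 (0.30) differed most, against 0.04 for Drd1a, 0.002 for Chrm4 and -0.19 for Eya1. The part of these sums in the Rgs2 difference was not tested.

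**Figure D2:**
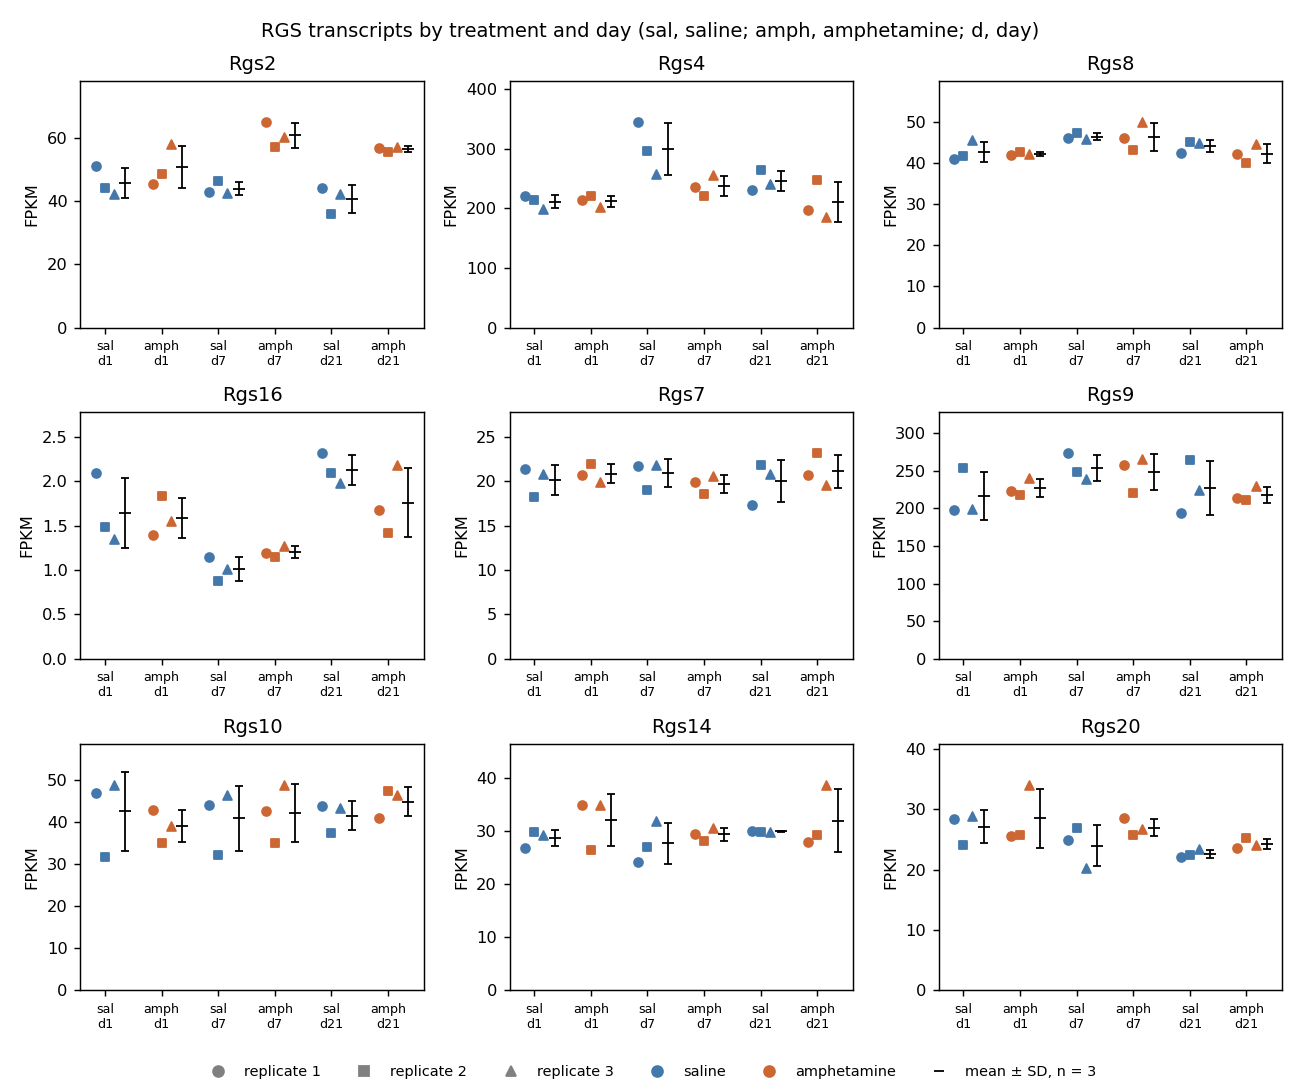
FPKM of the 9 RGS transcripts in each mouse by treatment and day (blue saline, orange amphetamine; circle, square and triangle for replicates 1, 2 and 3), with the group mean ± SD (n = 3). Rgs2 amphetamine libraries of days 7 and 21, at 55.5 to 65.1 FPKM, lie above all saline libraries of those days, and Rgs4 is highest in saline on day 7.

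Rgs4 was lower with amphetamine on the later days, but no comparison passed the test. On day 7 saline mice had 345, 296 and 257 FPKM and amphetamine mice 235, 221 and 255 FPKM. The groups did not overlap, though the lowest saline library stood only just above the highest amphetamine library. Among tested genes, 4.86% had day 7 groups that did not overlap with amphetamine lower. On day 21 saline mice had 231, 265 and 241 FPKM and amphetamine mice 197, 248 and 185 FPKM, with overlap. No member had day 21 groups that separated with amphetamine lower, as 7.51% of genes did, or both days 7 and 21 so, as 0.408% did. On day 1 the 6 values lay between 199.5 and 221.3 FPKM, and the difference was 0.01, a sign that turned with other scalings. The day 7 difference was -0.33 ± 0.113 (SE; 95% interval -0.57 to -0.08; unadjusted p = 0.0117, limma adjusted p = 0.832), and that of day 21 was -0.23 (-0.48 to 0.01; adjusted p = 0.869). The mean over days was -0.19 (-0.32 to -0.05; adjusted p = 0.783). Without saline replicate 1 of day 7, the highest library of all, the day 7 difference was -0.22. Within groups Rgs4 had an r of 0.185 with the cortical marker sum (exact permutation p = 0.427) and of -0.572 with the oligodendrocyte sum (p = 0.0122, 0.44 adjusted over 72 relations).

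Rgs4 also differed among the saline groups, with means of 211 ± 11 FPKM (day 1), 299 ± 43.7 FPKM (day 7) and 246 ± 17.3 FPKM (day 21; SD, n = 3 each). The amphetamine means were 212 ± 9.2, 237 ± 17.1 and 210.1 ± 33.6. In saline the day 7 level exceeded that of day 1 by 0.49 on the log2 scale. The test for any difference between days in saline gave an unadjusted p of 0.00243 and a limma adjusted p of 0.629, where 0.00716% of genes passed (5.95% unadjusted). The lower amphetamine level on day 7 stood against a saline group that was itself the highest of the 6. The blood marker sum was also highest in that group, at 115 to 888 FPKM (median 397) against 143 to 348 FPKM in amphetamine mice of day 7, and its part in the Rgs4 difference was not tested.

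Rgs8, an R4 member enriched in brain, was the steadiest of the set. Its 18 values spanned 40.1 to 49.9 FPKM, a ratio of 1.24, and its spread within groups (a log2 SD of 0.066) was larger than that of only 10.2% of tested genes of like level. Its mean difference over days was -0.03 (95% interval -0.10 to 0.05), so a change of the size seen for Rgs2 lay outside that interval.

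Rgs16, the R4 member of lowest level, was lower on day 7 than on the other days in both treatments. On day 1 saline mice had 2.10, 1.49 and 1.36 FPKM and amphetamine mice 1.39, 1.84 and 1.55 FPKM. On day 7 the saline values were 1.15, 0.88 and 1.02 FPKM and the amphetamine values 1.19, 1.15 and 1.28 FPKM. On day 21 the saline values were 2.32, 2.10 and 1.98 FPKM and the amphetamine values 1.68, 1.42 and 2.19 FPKM. All 6 day 7 libraries thus lay below all 12 others, with 1.28 FPKM the highest of day 7 and 1.36 the lowest elsewhere. Only 0.0644% of tested genes, 9 in all, had this pattern, and 0.0286% had its reverse. This pattern was looked for after the Rgs16 values had been seen. Ankra2, Dlx2, Timp2 and Vhl were among them.

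The model's test of days in saline gave Rgs16 an unadjusted p of 0.00051 and a limma adjusted p of 0.396. Over both treatments, a test added after the data were seen, the unadjusted p was 0.000281 and the adjusted p 0.203, where 0% of genes passed (10.7% unadjusted). Rgs4, Rgs8 and Rgs20 also had an unadjusted p under 0.05 in that limma test, at 0.00339, 0.0236 and 0.0357 (adjusted 0.291, 0.389 and 0.438). In saline, Rgs16 on day 7 was 0.38 below day 1 and on day 21 was 0.25 above it on the log2(FPKM + 1) scale. That scale understates ratios at such low levels. Between treatments its mean difference was -0.03 (95% interval -0.18 to 0.13). Day of sampling and number of days of injection cannot be told apart here.

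**Figure D3:**
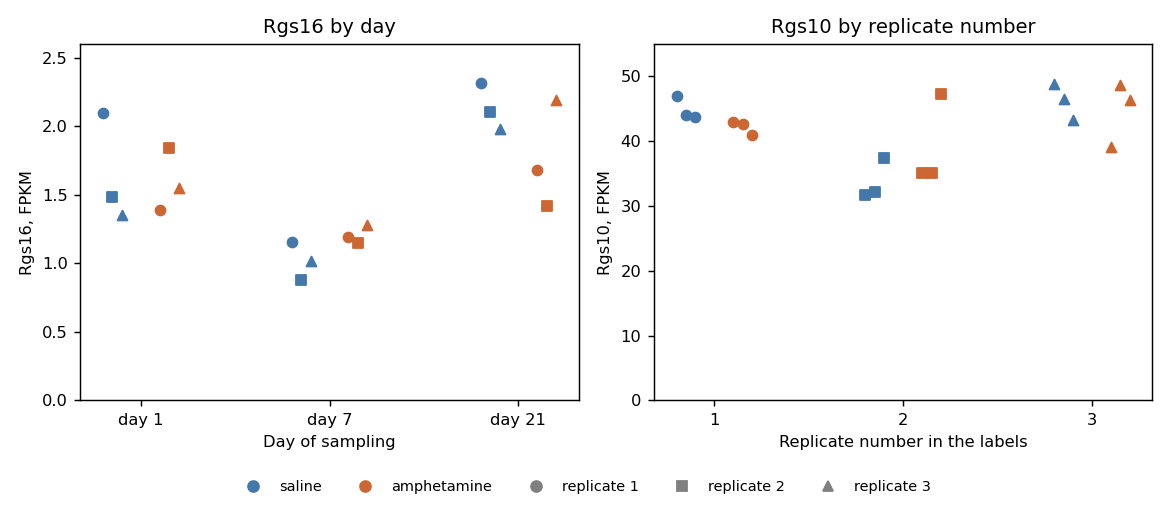
Left, Rgs16 FPKM by day of sampling; right, Rgs10 FPKM by replicate number (blue saline, orange amphetamine; shapes are replicate numbers). All day 7 values of Rgs16 are at or below 1.28 FPKM and all others at or above 1.36; the 5 lowest Rgs10 values, 31.8 to 37.4 FPKM, all carry replicate number 2.

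Neither R7 member passed the test between treatments on any day or over days. Rgs9 had 198, 254 and 199 FPKM in saline and 222, 217 and 241 FPKM in amphetamine mice on day 1. On day 7 it had 273, 249 and 239 FPKM against 258, 221 and 265 FPKM. On day 21 it had 193, 264 and 224 FPKM against 213, 210 and 230 FPKM. The groups overlapped on each day, and the lowest and highest libraries of all, at 193 and 273 FPKM, were both saline. The mean difference over days was -0.00 (95% interval -0.15 to 0.14; limma adjusted p = 0.999). Rgs7, a broadly expressed neuronal member, lay between 17.4 and 23.2 FPKM, with a mean difference of 0.02 (-0.10 to 0.13).

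Transcripts of 3 partners that bind or anchor R7 proteins were measured well above the minimum. Gnb5 had a median of 131 FPKM, Rgs7bp, the membrane anchor of R7 complexes, 123, and Gpr158, an orphan receptor that binds Rgs7, 53.5. Rgs9bp and Gpr179, the other partners listed, were under the minimum for testing. The 3 tested partners were all lower with amphetamine over days, with a median difference of -0.03, and none passed. The size was greatest for Rgs7bp, at -0.29 on day 7 (95% interval -0.50 to -0.08; limma adjusted p = 0.822) and -0.17 over days (-0.29 to -0.05; adjusted p = 0.714). Its day 7 values were 154, 158 and 124 FPKM in saline and 116, 113 and 127 FPKM in amphetamine mice, which overlapped. For Gnb5 and Gpr158 the mean differences were -0.03 (-0.15 to 0.08) and -0.03 (-0.12 to 0.07).

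In the R12 subfamily, Rgs10 had the widest spread between mice of a group, a log2 SD of 0.221, larger than that of 90.6% of tested genes of like level. For day 1 it had 47.0, 31.8 and 48.9 FPKM in saline and 42.9, 35.1 and 39.1 FPKM in amphetamine mice (replicates 1, 2 and 3). For day 7 the values were 44.1, 32.1 and 46.5 FPKM against 42.7, 35.0 and 48.7 FPKM. For day 21 they were 43.7, 37.4 and 43.3 FPKM against 40.9, 47.2 and 46.3 FPKM. The 5 lowest libraries all carried replicate number 2 in the labels, and the exception with that number was amphetamine on day 21, at 47.2 FPKM. Among tested genes 0.129% had their 5 lowest libraries in 1 replicate number, 18 in all, and 0.0429%, 6 genes, had them in number 2. This count was added after the values had been seen, and the labels do not say what the replicate numbers stand for. The spread bounds the amphetamine difference of Rgs10 only loosely, at 0.02 (95% interval -0.19 to 0.23). Its r with the microglial marker sum within groups was 0.223 (exact permutation p = 0.462). Rgs14 ranged from 24.1 to 38.7 FPKM, with a mean difference of 0.11 (-0.05 to 0.26; limma adjusted p = 0.999).

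Rgs20 had overlapping groups on days 1 and 7 and separated ones on day 21. On day 21 saline mice had 22.1, 22.4 and 23.4 FPKM and amphetamine mice 23.6, 25.2 and 24.1 FPKM. Every amphetamine value was higher, by a narrow margin, and 4.76% of tested genes had day 21 groups that separated with amphetamine higher. The day 21 difference was 0.10 (95% interval -0.14 to 0.33; limma adjusted p = 0.907), and the mean over days was 0.11 (-0.03 to 0.25; adjusted p = 0.999).

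**Figure D4:**
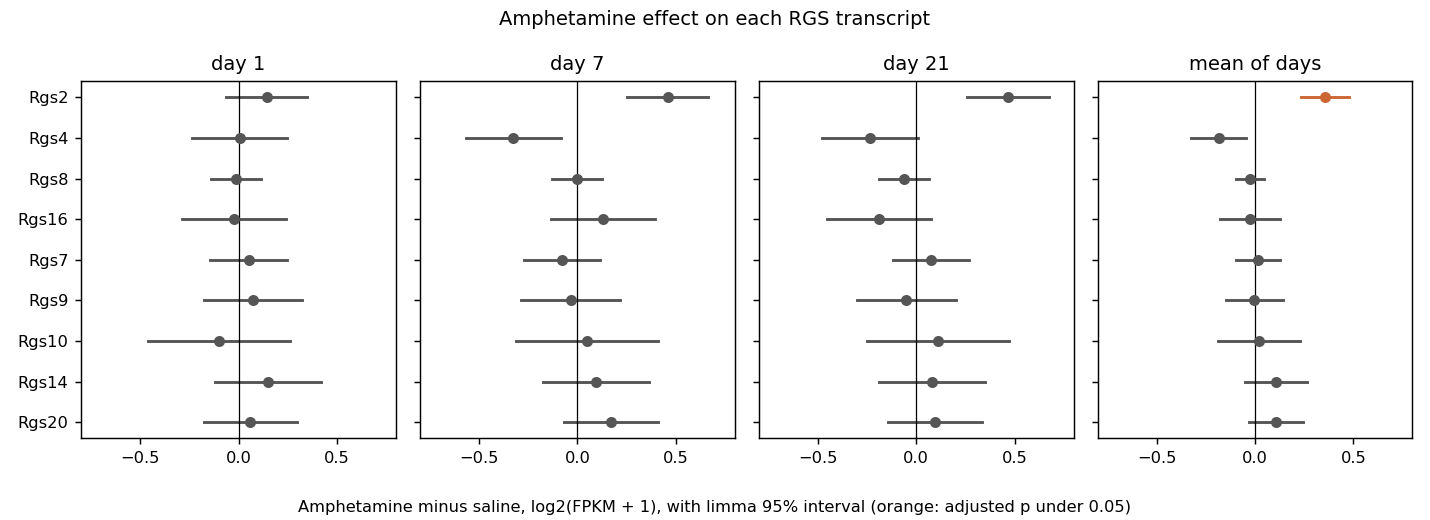
Amphetamine minus saline on the log2(FPKM + 1) scale for each RGS transcript on days 1, 7 and 21 and as the mean of days, with the 95% limma interval; orange marks an adjusted p under 0.05. Only Rgs2, as the mean of days, is orange, at 0.36, and the Rgs4 interval lies below 0 for day 7 and for that mean.

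The signalling partners of RGS proteins were counted as lists. Over the mean of days, 5 of the 9 members were higher and 4 lower, with a median difference of 0.02, while 55.6% of all tested genes were higher with a median of 0.01. By day, 6 members were higher on day 1 (64% of all genes), 5 on day 7 (51.5%) and 5 on day 21 (42.7%). Of 14 other tested genes with an RGS or RGS-like domain or an RGS anchor, 4 were higher and 10 lower (median -0.04). Of 11 G protein alpha subunits 7 were higher, and of 12 beta and gamma subunits 5 were. Of 12 further modulators, among them G protein receptor kinases and arrestins, 11 were higher, with a median of only 0.04. Their direction differed by day, with 11 higher on day 1, 9 on day 7 and 2 on day 21. Over the mean of days, of 34 receptors 13 were higher (median -0.04), and of 16 effectors 7 were. None of the genes in these lists, members aside, passed the test in this comparison.

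Among the genes named for their role, Gnao1, the Go alpha subunit, had a median of 244 FPKM and a mean difference of -0.03 (95% interval -0.09 to 0.03). Gnal, the alpha subunit that couples striatal D1 and adenosine receptors to adenylyl cyclase, had 178 FPKM and -0.05 (-0.13 to 0.03). Adcy5, the main striatal adenylyl cyclase, had 265 FPKM and -0.05 (-0.17 to 0.08). The dopamine receptors Drd1a and Drd2 had medians of 110 and 135 FPKM, with mean differences of -0.10 (-0.18 to -0.02; limma adjusted p = 0.784) and -0.08 (-0.23 to 0.07). For Adora2a, the adenosine receptor of indirect-pathway neurons, the median was 164 FPKM and the mean difference -0.11 (-0.25 to 0.02). It was 0.17 on day 1 and -0.25 and -0.26 on days 7 and 21, with an interaction of unadjusted p = 0.0222 (limma adjusted p = 0.773).

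Relations between members across mice were examined next. After removal of group means, 36 pairs of members and 36 relations of a member with a marker sum were computed over the 18 libraries, each with an exact test over all permutations of libraries within groups. No pair of members passed after adjustment. Among the pairs with the smallest p were Rgs2 with Rgs20 (r = 0.571, exact p = 0.0678; rho = 0.527, p = 0.077; r = 0.368 without the 2 libraries farthest from the median of Rgs2) and Rgs4 with Rgs7 (r = 0.532, exact p = 0.0693; rho = 0.55, p = 0.0613; 0.416 without 2 libraries). Of the 72 relations, 3 had an unadjusted p under 0.05 and 1 passed. Rgs4 and Rgs16 were both lower where the oligodendrocyte sum was higher (r = -0.572 and -0.566, exact permutation p = 0.0122 and 0.0241). Neither of these passed (adjusted 0.44 and 0.578). The relation that passed was that of Rgs16, which was lower where the choroid plexus sum was higher. Its Pearson r was -0.683 (exact permutation p = 0.0006, adjusted 0.0432) and its Spearman rho -0.721 (p = 0.00302, adjusted 0.218). Without the 2 libraries farthest from the median of the marker sum r was -0.656. Under median-of-ratios scaling none of the 72 passed. In the choroid plexus list 3 of 8 markers (Folr1, Kcne2 and Otx2) had a mean under 1 FPKM. Its sum was highest in amphetamine mice of day 1, at 71.6 to 158 FPKM, above every day 7 library (45.0 to 66.4 FPKM). Both day 7 groups overlapped saline mice of day 1 (51.7 to 58.1 FPKM) and both groups of day 21 (44.4 to 86.9 FPKM). The part of this sum in the day pattern of Rgs16 was not tested.

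**Figure D5:**
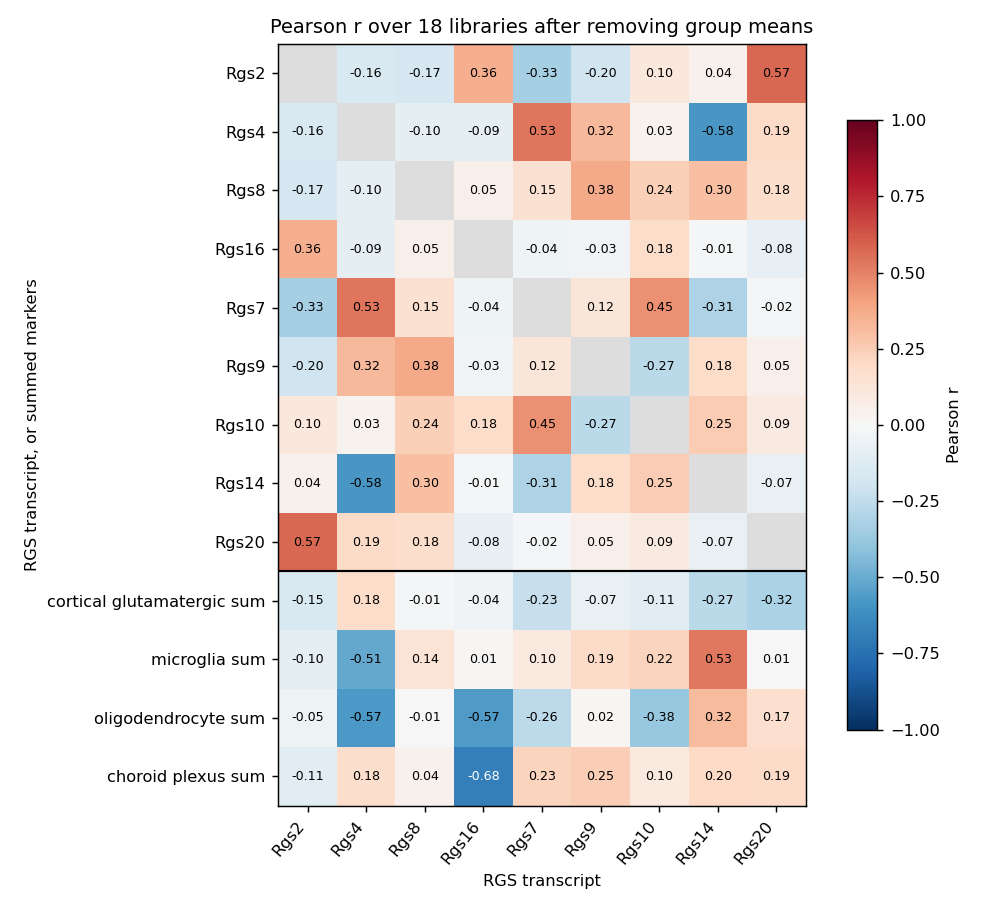
Pearson r over 18 libraries, after removal of group means, between the 9 RGS transcripts (upper block) and between each and the summed FPKM of 4 marker lists (lower block). Red is positive and blue negative; the relation of Rgs16 with the choroid plexus sum, at -0.68, is the 1 that passed adjustment.

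The genes whose levels followed each member most closely over the 18 libraries were sought among 9451 others (9452 for Rgs16) with a mean of at least 5 FPKM. These correlations include group differences and are descriptions without a test. Rgs9 had the closest, Inf2 and Slc22a3, each with r = 0.919, followed by Rgs14 with Ppp2r5b (0.913) and Scamp4 (0.886). Rgs10 was closest to St6galnac5 (0.892) and Calb1 (0.833), and St6galnac5 was also among the 6 genes with their 5 lowest libraries in replicate number 2. Rgs4 was closest to AI593442 (0.876) and Gpr155 (0.851), and Rgs8 to 1110012J17Rik (0.865) and Gcnt2 (0.83). For Rgs2 they were Coq10b (0.84) and Rnd3 (0.827), and for Rgs20 Ppapdc2 (0.846) and Etv5 (0.841). Rgs16 followed Ankra2 (0.776), another of the 9 genes that were lowest on day 7, and Scarna3a (0.767). Rgs7 had the weakest best match, Sucla2 (0.772), with BC085271 (0.708) next. The libraries share depth and tissue makeup, and no shared function is implied.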

How the data were processed

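RNA from the striatum of 18 mice was sequenced, and the authors deposited 1 table of FPKM values, normalised for transcript length and library size. Reads were aligned with Bowtie to mm9, per the submitters' processing notes; the labels give no version, quantifier, annotation or use of strand, so reads of overlapping genes could be assigned to either. Each library's condition and replicate number came from the labels, which do not say that equal numbers share a litter or day.

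The 13975 genes that averaged 1 FPKM or more were analysed as log2(FPKM + 1) with limma 3.58.1 (R 4.3.3), with 1 mean per group, a mean-variance trend, 12 residual and 2.26 prior degrees of freedom, two-sided tests and Benjamini-Hochberg adjustment over all tested genes at 0.05. Fold changes are on that scale, which understates changes of low genes. The model and the permutation script were tested on simulated data. Relations used exact permutation within groups. FPKM values are not counts, so no count test was run, and read depth is known only relative to the deepest library. Python 3.11.15 with scipy 1.17.1 was used for the rest. Alternatives were another pseudocount (0.1), no filter or a mean of 5, median-of-ratios and quantile scaling, array weights, a replicate block, a label number covariate, relative depth, single days, and leaving out each library.

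The members and gene lists were chosen with earlier results of these data known. Named genes are the 9 members, the 2 genes most like each, genes of the lists that passed, the other numbered Rgs genes of highest level and 9 genes named for their role. Genes named for being under the minimum for testing, and those that shared the day 7 pattern of Rgs16, were chosen after their values were seen. With 3 mice against 3, an exact test of 1 gene on 1 day cannot go below p = 0.1, two-sided. Promoter windows came from RefSeq (GRCm38.p6), with the 50 bases after the start left out.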

Additional observations from a re-analysis of the deposited data

How the results depend on the processing

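Depth is known only as a ratio between libraries, so no counting error can be given, which matters most for Rgs16. Over the mean of days 1 member passed; with the replicate block 0 did (Rgs2 adjusted p = 0.0516), and without 1 library the count ranged from 0 to 1. The block tied equal numbers across days, and no fit paired mice within a day. The labels do not say that replicate numbers pair the mice, and pairing was not assumed. In most same-day pairs of equal replicate number, though, the saline and amphetamine mouse had consecutive label numbers. Of 9 such pairs, 3 had residuals that correlated over 0.1 (range -0.085 to 0.145). Within a day, 9 of 18 libraries correlated best with their own number. Over all groups, residuals correlated at a mean of 0.021 for equal numbers and -0.01 for other numbers. With 3 mice a group, these values cannot decide whether the mice were paired. With a minimum mean of 5 FPKM Rgs16 was not tested. Under median-of-ratios scaling 0 of the 72 relations passed, against 1. Over the mean of days 17 of all genes passed, 28 with array weights, 8 with the block and 9 with relative depth as a covariate; on day 7 the counts were 3, 6 with array weights and 0 with the block. Of 347 member values under other settings 11 reversed sign, in 7 results, and of 648 without 1 library 38 did, in 16 results. In the main fit, all the results that reversed were of size 0.101 or less on the log2 scale. The cause was not tested. The reversed values were, for Rgs14 on day 21, -0.0217 with relative depth; for Rgs16 on day 1, 0.0063 with array weights and 0.00021 with the label number covariate; for Rgs20 on day 1, -0.0451 with array weights; for Rgs4 on day 1, -0.0489 with median-of-ratios and -0.0727 with quantile scaling; for Rgs7 on day 1, -0.0013 and -0.00091 with the same scalings; for Rgs8 on day 7, 0.0113 with quantile scaling; and for Rgs9 over days, 0.0067 with array weights and 0.0065 with relative depth. Without 1 library, Rgs10 ranged from -0.29 to 0.0092 on day 1, -0.11 to 0.17 on day 7 and -0.0456 to 0.0600 over days. Rgs14 ranged from -0.0634 to 0.17 on day 21, and Rgs20 from -0.0723 to 0.13 on day 1. Rgs16 ranged from -0.10 to 0.10 on day 1 and -0.0633 to 0.0124 over days. Rgs4 ranged from -0.0353 to 0.039 on day 1. Rgs7 ranged from -0.0151 to 0.0924 on day 1, -0.0192 to 0.14 on day 21 and -0.0159 to 0.0371 over days. Rgs8 ranged from -0.0447 to 0.0318 on day 1 and -0.0561 to 0.0469 on day 7. Rgs9 ranged from -0.16 to 0.0655 on day 21, -0.0866 to 0.0465 on day 7 and -0.0403 to 0.0359 over days. Where a library is left out of a group of 3, the model takes the spread from all groups.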
